A study of Mus musculus with 15 samples.

Results

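Ribosome profiling reads of 81 liver genes whose ribosome binding peaked around dusk, between circadian times CT9 and CT15, were examined across 1 day in constant darkness. They were chosen from these same libraries, out of 8166 genes with a mean of at least 100 reads per library, counting 1 transcript per gene. For each gene, a cosine with a period of 24 h was fitted by least squares to log2(CPM + 0.5), where CPM is the read count of the whole transcript scaled to 1000000 counts outside the major urinary protein (Mup) genes. A gene was kept when the cosine explained at least 0.6 of the variance (R2), the fitted peak was at least 1 log2 unit above the fitted trough (a doubling), no single library held over 30% of the gene's summed CPM, and the fitted peak (the phase) lay from 9 h up to 15 h. Core clock genes such as Per1 and Dbp and the Cyp, Gst, Ugt and Slc25 families were left out by symbol, which removed 7 of 88 genes in this window. The 81 genes are 0.992% of those examined, and the same rule with all phases kept 327 genes (4.0%). Because rhythm, phase and amplitude chose these genes, those values are given as a description and carry no test.

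The livers came from male wild-type C57BL/6N mice, 8 to 10 weeks old, kept in 12 h of light and 12 h of darkness for 2 weeks and then moved to constant darkness for 24 h. Whole liver was taken from 2 mice every 4 h from CT0 to CT24, which gave 14 libraries. No genotype, drug or diet was compared. The labels put CT0 to CT12 on 1 calendar day and CT16 to CT24 on the next, so collection day and circadian time cannot be told apart. No RNA-seq libraries were analysed here, so the mRNA level and the number of ribosomes per mRNA cannot be told apart. In whole liver, fewer cells of a type and less RNA per cell cannot be told apart.

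The mammalian clock is a loop in which the activators CLOCK and BMAL1 bind E-box sequences and switch on the genes of their own repressors, the PER and CRY proteins. The same activators drive output genes directly, and also through the PAR bZIP factors DBP, TEF and HLF, which bind D-box sequences. In a nocturnal mouse, CT12 is when lights would have gone off, and the liver then passes from the fasting of the day, with glucose output and fatty acid oxidation, to the feeding of the night. Glucocorticoid hormones of the adrenal gland also peak around dusk in mice and act on many liver genes.

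The means per time lay around dusk. The highest mean of the 7 times was at CT12 in 62 genes, at CT16 in 16 and at CT8 in 3 (Klhdc7a, Tns2 and Npc1), and the lowest mean was at CT4 in 25 genes, CT24 in 24, CT0 in 22 and CT20 in 10. The median phase was 12.2 h and the median fitted peak-to-trough difference was 1.30 log2 units, from 1.00 for Mtss1 to 4.50 for Usp2. A difference of at least 2 was reached by 15 genes, and 67 of the 81 gave phases within 2 h of each other when the 2 replicate series were fitted apart. That held for 2703 of all 8166 genes, and the R2 limit on the same libraries favours it. In all 81 genes both libraries of the highest time lay above both libraries of the lowest time, which also held for 89.3% of all 8166 genes, so this count says nothing particular about them. Together the 81 genes took 0.405% and 0.486% of the counts outside Mup at CT0, 1.33% and 1.28% at CT12, and 0.432% and 0.440% at CT24.

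**Figure D1:**
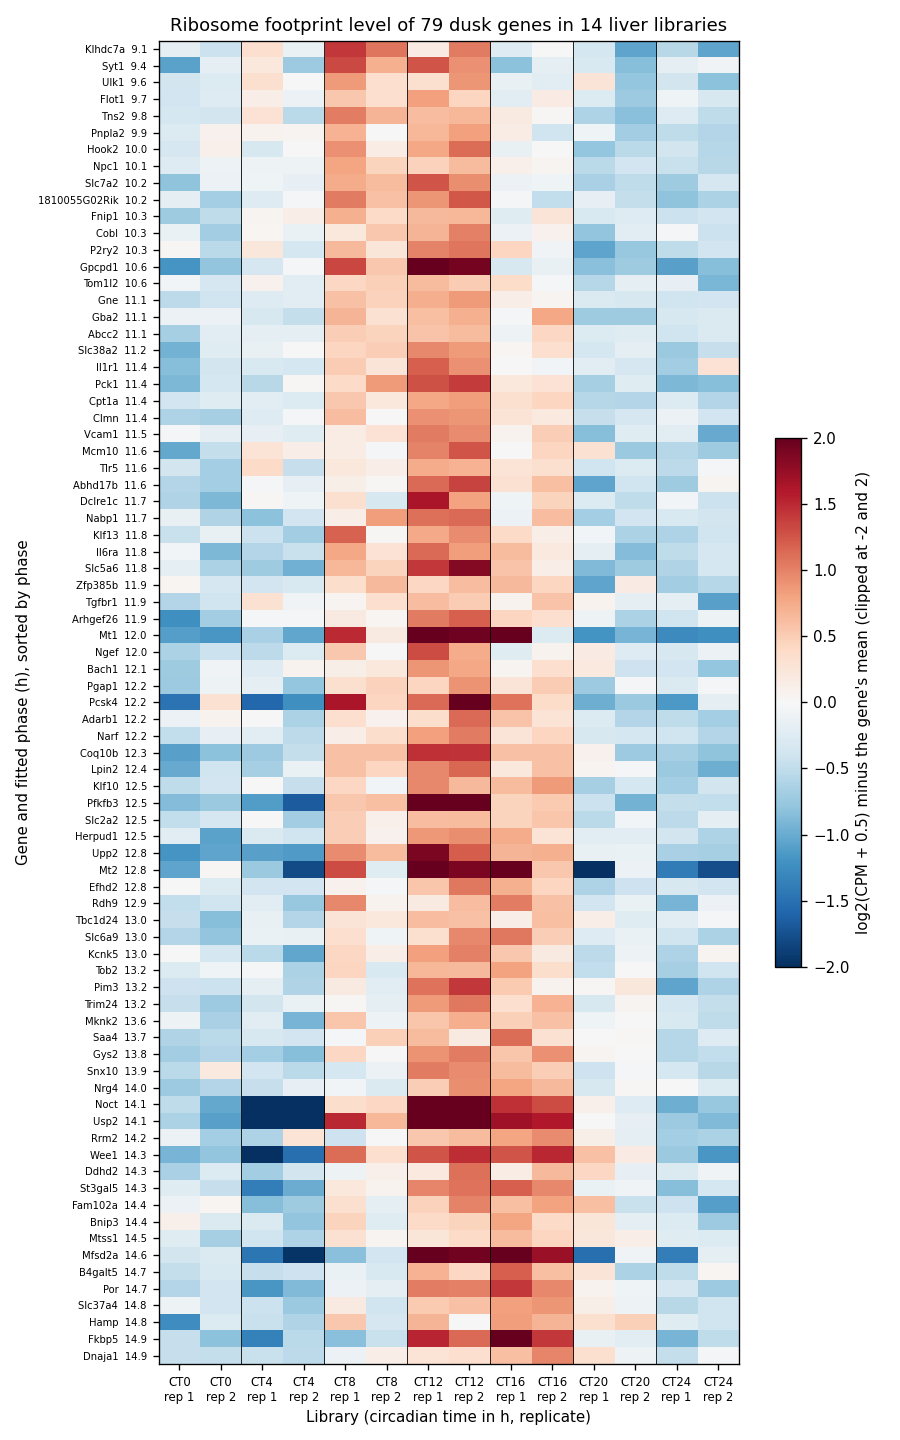
Ribosome footprint level of 79 of the 81 genes (rows, sorted by fitted phase in h) in the 14 libraries (columns), as log2(CPM + 0.5) minus the mean of the gene, clipped at -2 and 2. The band of high values moves from CT8 and CT12 in the upper rows to CT12 and CT16 in the lower rows, and the lowest values of Noct and Usp2 are at CT4.

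**Figure D2:**
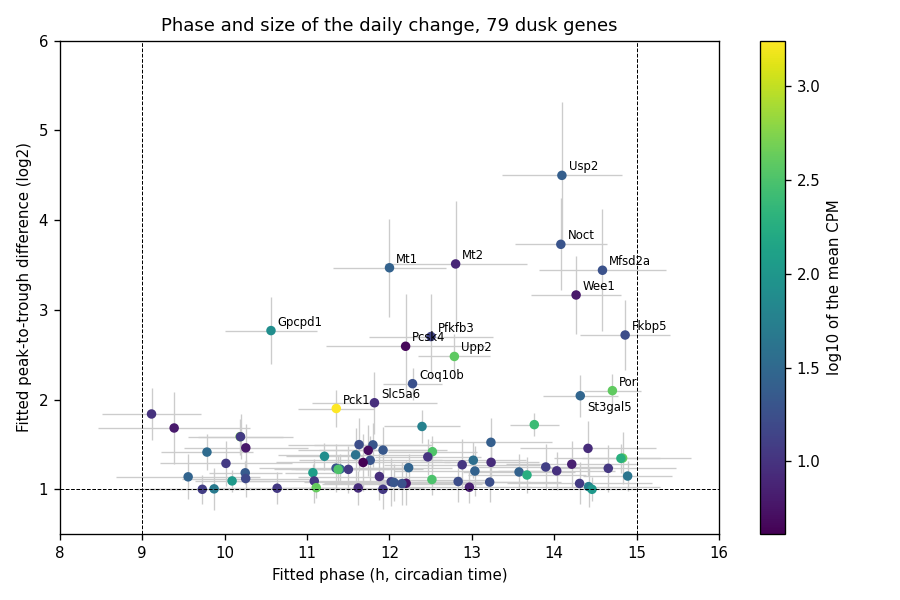
Fitted phase (h) against the fitted peak-to-trough difference (log2) of 79 of the 81 genes, with standard errors of the fit and colour for the mean CPM. Dashed lines mark the limits of the rule, and Usp2 lies highest at 4.50.

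Total counts ranged from 40593197 to 90458783 per library, of which 42.1% to 70.7% belonged to Mup transcripts, so that 17090764 to 35532809 counts were left for scaling. In CT16 replicate 2 all counts were even numbers, so its reads may each have been counted 2 times, which would overstate its depth and its weight in the count tests. Its share of 5′UTR reads was the lowest of the 14 libraries (2.98% against 3.79% to 4.88%). Markers of pancreatic acinar cells summed to 9221 CPM in CT20 replicate 2 and to 6.41 CPM in the lowest library, and none of those markers is among the 81 genes. Without CT16 replicate 2 the rule kept 78 genes, 74 of them among the 81, and without CT20 replicate 2 it kept 76, 70 of them among the 81. The 10 hepatocyte markers summed to between 99730 and 125882 CPM, while the summed markers of Kupffer, endothelial and stellate cells had their lowest mean at CT16, between 295 and 469 CPM, and the part of these shifts in the results was not tested. With Mup left in the totals, all genes of a library shifted together, by -0.49 to 0.50 log2 units. A cosine fitted to these shifts peaked at 21.8 h with a range of 0.48, but mice of 1 time differed by as much, with 0.48 and -0.11 at CT16. Under that scaling only 13 of the 81 genes passed, among them Coq10b, Gpcpd1, Gys2, Lpin2, Mt1, Noct, Pck1, Pfkfb3, Trim24, Upp2, Usp2 and Wee1. TMM and DESeq2 scaling each kept 75 of the 81.

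Promoter sequence was looked at for elements of the clock and of hormone and stress responses. RefSeq promoters (GRCm38.p6, 250 bases before to 50 after the start site) were at hand at the start site of the transcript used for 66 of the 81 genes, and for 6442 of the 8166. The E-box CACGTG, which is its own reverse complement, was present in 11 of the 66 (16.7%) and in 10.9% of the 6442, with 7.32% of the day, 13.95% of the night and 11.5% of the dawn genes of the same rule. The D-box TTATGNAA, read on both strands, was present in 4 of the 66 (6.06%) and in 2.39% of the 6442, with 0 of 41 day genes, 4.65% of the night and 2.88% of the dawn genes. In all, 14 genes held at least 1 of these, and Coq10b held both. The 12 with the largest amplitude among them are shown, since these are the elements through which the clock is known to act, in lower case with the matched letters in capitals, 5′ to 3′ on the strand of the gene.
Noct D-box, chr3:51224342-51224371, plus strand: tagccttcattTTCCATAActacagtgctg
Fkbp5 E-box, chr17:28486301-28486330, minus strand: gcaagggccagaCACGTGggcagcggtgaa
Pfkfb3 E-box, chr2:11502126-11502155, minus strand: cacccttctctcCACGTGaaagggggctgg
Coq10b E-box, chr1:55052680-55052709, plus strand: ggcggcactggaCACGTGcgtcagcctagc
Coq10b D-box, chr1:55052597-55052626, plus strand: cgtcacgaagaTTACATAAgtggcagactc
Il6ra E-box, chr3:89913203-89913232, minus strand: gctgctgtgtgtCACGTGcatgtgggaagt
P2ry2 E-box, chr7:101011999-101012028, minus strand: ggcgcttccaggCACGTGggaccctgcgcc
Hook2 E-box, chr8:84990534-84990563, plus strand: gcaatgggagatCACGTGtctggggcggag
Rdh9 E-box, chr10:127776192-127776221, plus strand: cacatatattccCACGTGagtccaggaagc
Il1r1 D-box, chr1:40224915-40224944, plus strand: gggtactaataTTTCATAAgggcctggcac
Nrg4 D-box, chr9:55283819-55283848, minus strand: aacgtggcttaTTTCATAActttgaaactt
Kcnk5 E-box, chr14:20181739-20181768, minus strand: gcagaggcggcaCACGTGtctgctggtgtg
Fnip1 E-box, chr11:54438092-54438121, plus strand: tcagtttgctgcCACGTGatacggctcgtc
The E-box of Kcnk5 lies 26 bases after its start site, and the other elements shown lie before the start. The 14 genes with an E-box or D-box had phases from 10.02 to 14.9 h, which spans most of the window, and none of their E-boxes or D-boxes shared a base with another element searched.

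Other elements were searched in the same promoters on both strands. The E′-box CACGTT was in 6 of the 66 (9.09%, against 5.51% of the 6442 and 14.6%, 6.98% and 5.77% of the day, night and dawn genes). The CCAAT box was in 28 (42.4%, against 39.1% of the 6442 and 41.5%, 41.9% and 52.9% in the same order). The RORE core TAGGTCA, the heat shock element and the cAMP response element TGACGTCA were in none of the 66, and in 2.02%, 0.435% and 3.31% of the 6442. In the day, night and dawn genes the RORE core was in 1, 0 and 8 promoters, the heat shock element in 0, 1 and 1, and the cAMP response element in 1, 3 and 2, of 41, 43 and 104. The palindromic glucocorticoid element was in 1 of the 66 (1.52%, against 0.264%), the promoter of Mt1, a metallothionein.
Mt1 glucocorticoid element, chr8:94178987-94179016, plus strand: cactatagGGACATGATGTTCcacacgtca
No test was made of these shares. A match is a description of letters in a short window, and elements farther from the start site were not searched.

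Usp2 and Noct, both known outputs of the clock, had the widest daily ranges of the 81 genes, and Wee1 had the sixth widest. Gene positions are given on GRCm38.p6 from the RefSeq annotation. Usp2 (chr9:44067021-44095627) encodes a deubiquitinase with clock proteins among its substrates, Noct (chr3:51224447-51251654) encodes nocturnin, a phosphatase of NADP(H), and Wee1 (chr7:110122059-110143299) encodes the kinase that holds back CDK1 before mitosis. In CPM, Usp2 stood at 8.04 and 5.75 at CT0, 0.558 and 0.670 at CT4, 37.0 and 20.3 at CT8, 75.6 and 79.7 at CT12, 42.0 and 39.7 at CT16, 12.8 and 11.3 at CT20, and 7.51 and 6.67 at CT24. Its mean at CT12 was 77.7 ± 2.88 CPM (SD, n = 2) and at CT4 0.614 ± 0.0790 CPM, a ratio of 126-fold, and both libraries at CT4 lay below all other libraries. The fitted peak of Usp2 was at 14.1 ± 0.73 h (SE of the fit), later than its highest mean at CT12, and the replicate series gave 13.999 and 14.2 h. It was kept under all 26 alternatives to the rule.

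Noct read 8.21 and 5.55 at CT0, 2.35 and 1.34 at CT4, 15.2 and 15.98 at CT8, 56.7 and 71.6 at CT12, 33.4 and 30.0 at CT16, 12.7 and 9.84 at CT20, and 5.74 and 6.80 at CT24, in CPM. Noct thus stood at 64.1 ± 10.6 CPM at CT12 and 1.85 ± 0.716 at CT4, a ratio of 34.7-fold, with a fitted peak at 14.1 ± 0.56 h and no overlap between the CT12 pair and any other library. Without CT12 replicate 1, Noct no longer passed, since CT12 replicate 2 then held over 30% of its summed CPM. Wee1 was lower and flatter at the top, at 2.04 and 2.32 at CT0, 0.319 and 1.20 at CT4, 10.01 and 5.60 at CT8, 11.1 and 13.0 at CT12, 11.1 and 13.2 at CT16, 6.73 and 4.92 at CT20, and 2.40 and 1.66 at CT24, in CPM. Its values at CT12 and CT16 overlapped, and its fitted peak was at 14.3 ± 0.54 h. These genes share a phase near 14 h, and each had its lowest pair at CT4.

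Among 20 measured clock factors and outputs of a list that leaves out the omitted symbols, 5 fell in the dusk window, 4 in the night window (15 to 21 h), 3 in the dawn window (21 to 3 h) and 8 in none. Beside Usp2, Noct and Wee1, these were Por and Klf10. Por (chr5:135670040-135735326) encodes cytochrome P450 reductase, the electron donor of microsomal P450 enzymes. Por read 228 and 263 at CT0, 153 and 186 at CT4, 317 and 301 at CT8, 702 and 695 at CT12, 917 and 673 at CT16, 363 and 324 at CT20, and 272 and 209 at CT24, in CPM, which is 795 ± 172 CPM at CT16 and 169 ± 23.4 at CT4. Its fitted phase of 14.7 ± 0.35 h is among the latest of the 81, and all values at CT12 and CT16 lay above all other values. Klf10 (chr15:38291464-38300711), a Krüppel-like transcription factor, had a narrower range, with 16.8 ± 2.58 CPM at CT12 and 6.36 ± 1.08 at CT24.

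Glucose and glycogen genes were the second list with 5 dusk genes, out of 22 measured, against 2 in the night window, 1 in the dawn window and 14 in none. They cover both directions of glucose handling. Pck1 (chr2:173153073-173159274), which encodes the cytosolic phosphoenolpyruvate carboxykinase of gluconeogenesis, had the most reads of all 81 genes, with a mean of 1740 CPM. Its libraries read 812 and 1189 at CT0, 1029 and 1539 at CT4, 1969 and 2725 at CT8, 3650 and 3964 at CT12, 1748 and 1851 at CT16, 958 and 1274 at CT20, and 811 and 840 at CT24, in CPM. The CT12 pair was the highest and the CT8 pair the next, and the fitted peak was at 11.4 ± 0.46 h. Pck1 stood at 3807 ± 222 CPM at CT12 and 826 ± 20.3 at CT24, a 4.61-fold range, and it was kept under all 26 alternatives.

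Gys2 (chr6:142422612-142473130), the liver glycogen synthase, read 140 and 152 at CT0, 141 and 125 at CT4, 303 and 229 at CT8, 423 and 466 at CT12, 333 and 428 at CT16, 236 and 229 at CT20, and 153 and 162 at CT24, in CPM. It reached 445 ± 30.8 CPM at CT12 against 133 ± 11.3 at CT4, its fit had the highest R2 of the 81 (0.95), and its phase was 13.8 ± 0.30 h. Slc37a4 (chr9:44396946-44402966), the glucose-6-phosphate transporter of the endoplasmic reticulum, peaked later, at 14.8 ± 0.47 h, with 314 ± 10.3 CPM at CT16 and 116 ± 17.3 at CT4. Slc2a2 (chr3:28697903-28728361), the glucose transporter GLUT2 of the hepatocyte membrane, had the narrowest range of the 5, with 455 ± 2.58 CPM at CT12 and 220 ± 17.2 at CT0, a 2.06-fold range. Its replicate series disagreed more than those of the other 80 genes, with phases of 10.996 and 14.2 h.

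Pfkfb3 (chr2:11471430-11554071) encodes a kinase that makes fructose 2,6-bisphosphate, the activator of glycolysis. Its libraries read 4.85 and 5.35 at CT0, 4.03 and 2.58 at CT4, 13.7 and 14.3 at CT8, 48.0 and 48.2 at CT12, 12.8 and 13.5 at CT16, 6.79 and 4.58 at CT20, and 6.53 and 6.42 at CT24, in CPM. The CT12 pair stood alone, more than 3 times the next library. The peak at CT12 was narrower than a cosine, and Pfkfb3 is 1 of 2 genes of the set with a 12-h component that passed the test given further down. Without either CT12 library, it exceeded the limit of 30% in the other one.

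**Figure D3:**
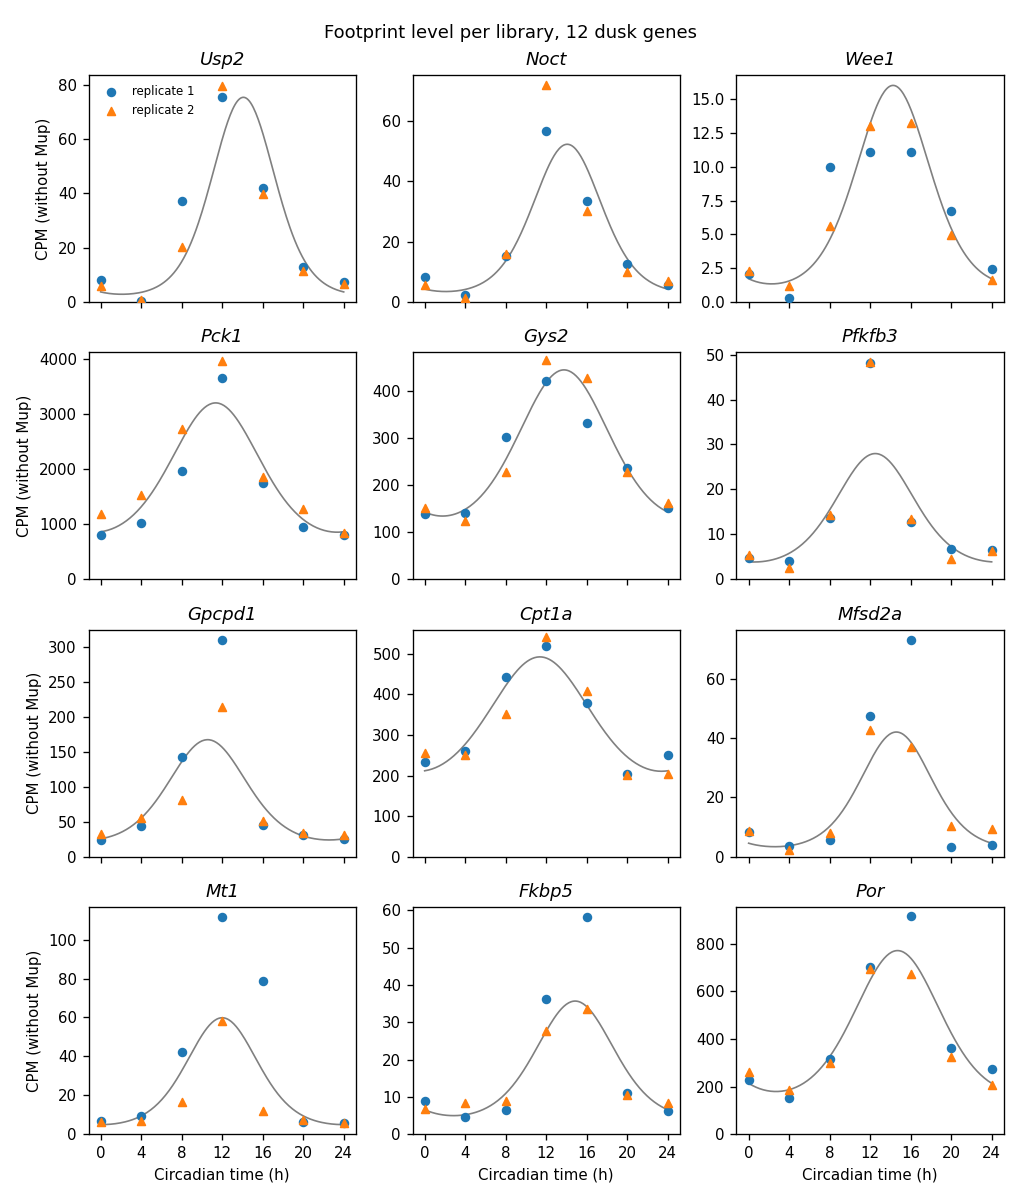
CPM of 12 of the 81 genes in each library against circadian time (h), with circles for replicate 1, triangles for replicate 2 and the fitted 24-h cosine as a grey line. Usp2, Noct, Pfkfb3 and Gpcpd1 stand above the fitted line at CT12, and Por and Fkbp5 are highest at CT16.

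Lipid genes peaked on both sides of CT12. Gpcpd1 (chr2:132529082-132578248), a glycerophosphocholine phosphodiesterase, read 24.4 and 32.3 at CT0, 44.4 and 55.4 at CT4, 143 and 81.3 at CT8, 310 and 214 at CT12, 44.9 and 50.8 at CT16, 31.4 and 34.1 at CT20, and 26.1 and 31.0 at CT24, in CPM. Its CT12 values exceeded those of CT16 by over 4 times, and its phase of 10.6 ± 0.56 h was the earliest among the genes with an amplitude above 2. Mfsd2a (chr4:122946850-122961194), a carrier of lysophospholipids with long-chain omega-3 fatty acids, read 8.29 and 8.78 at CT0, 3.63 and 2.39 at CT4, 5.83 and 8.18 at CT8, 47.4 and 42.7 at CT12, 73.0 and 36.9 at CT16, 3.45 and 10.2 at CT20, and 3.83 and 9.41 at CT24, in CPM. It was high at CT12 and CT16 alone, with a phase of 14.6 ± 0.77 h, and its 2 mice at CT16 lay farther apart than those at CT12.

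Cpt1a (chr19:3322326-3385735), the carnitine palmitoyltransferase that gates fatty acid entry into mitochondria, read 233 and 257 at CT0, 261 and 251 at CT4, 443 and 352 at CT8, 519 and 542 at CT12, 378 and 408 at CT16, 205 and 202 at CT20, and 252 and 203 at CT24, in CPM. Its means were 531 ± 16.4 CPM at CT12 and 203 ± 2.29 at CT20, and the CT12 pair lay above all other libraries. Pnpla2 (chr7:141455188-141460743), the adipose triglyceride lipase, had 77.8 ± 5.47 CPM at CT12 and 31.6 ± 1.19 at CT24. These were the 2 dusk genes among 26 measured PPARA targets and oxidation genes, of which 19 fell in no window. Pnpla2 was lost under 13 of the 26 alternatives to the rule, among them TMM scaling, DESeq2 scaling and CDS reads alone. Lpin2 (chr17:71183532-71249818), a phosphatidate phosphatase of triglyceride synthesis, was the 1 dusk gene among 23 measured synthesis genes, with 106 ± 9.83 CPM at CT12 and 27.9 ± 3.23 at CT24. Its relative Lpin1 peaked at 12.9 h with an amplitude of 4.16 log2 units, and was left out because 1 library held 33.9% of its CPM. Of 27 measured genes of cholesterol synthesis and uptake, none was in the dusk window and 6 were in the dawn window, and none of 29 measured amino acid and urea enzymes was in the dusk window either. With 0.992% of all genes in that window, a count of 0 in lists of this size is no departure from the background. A list of 20 genes held cytosolic ribosomal proteins and also Eef1a1, Eef2, Eif4a1, Tpt1 and Pabpc1. None of the 20 passed at dusk, and their median peak-to-trough difference was 1.24.

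A group of 4 genes acts on glycosphingolipids or sialic acid. St3gal5 (chr6:72097552-72154571), which makes the ganglioside GM3, had the widest range of them, with 53.9 ± 6.14 CPM at CT16 and 10.95 ± 2.18 at CT4, and a phase of 14.3 ± 0.46 h. B4galt5, a lactosylceramide synthase, had a phase of 14.7 ± 0.82 h. Gne, the first enzyme of sialic acid synthesis, peaked earlier, at 11.1 ± 0.34 h, with 194 ± 12.1 CPM at CT12 and 80.9 ± 4.64 at CT0. Gba2, a glucosylceramidase, peaked at 11.1 ± 0.97 h, with 16.2 ± 0.879 CPM at CT12 and 5.98 ± 0.0160 at CT20. Npc1, which exports cholesterol from lysosomes, was highest at CT8, with 156 ± 27.0 CPM at CT8 and 71.7 ± 3.87 at CT24.

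The metallothioneins had their highest means at CT12, with mice that lay far apart from CT8 to CT16. Mt1 (chr8:94178883-94180327) and Mt2 (chr8:94172618-94173567) encode small cysteine-rich proteins that bind zinc and copper. Mt1 read 6.59 and 6.31 at CT0, 9.21 and 6.94 at CT4, 42.3 and 16.8 at CT8, 111 and 58.3 at CT12, 79.0 and 12.1 at CT16, 6.20 and 7.48 at CT20, and 5.84 and 6.01 at CT24, in CPM. Replicate 1 was above replicate 2 at CT8, CT12 and CT16, and the replicate 2 library at CT16 was below the replicate 2 library at CT8, while the values at CT0, CT20 and CT24 stayed between 5.84 and 7.48 CPM. Mt2 read 1.70 and 4.15 at CT0, 2.23 and 0.814 at CT4, 10.7 and 3.36 at CT8, 29.7 and 16.2 at CT12, 28.005 and 6.11 at CT16, 0.644 and 3.70 at CT20, and 1.23 and 0.829 at CT24, in CPM. The same 3 libraries of replicate 1 were the higher ones for Mt2, whose replicate 2 at CT8 lay below replicate 2 at CT0 and CT20, and the same mice gave both values. The same 2 genes were the dusk genes among 21 measured immediate early and stress genes. Mt1 held 29.8% of its CPM in 1 library, just inside the limit, and it passed the rule in 7 of the 26 alternatives, always failing when a library was left out.

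Chaperone genes of the set peaked late. Fkbp5 (chr17:28398753-28486149), a cochaperone of the glucocorticoid receptor, read 8.80 and 6.75 at CT0, 4.51 and 8.28 at CT4, 6.63 and 8.88 at CT8, 36.4 and 27.6 at CT12, 58.2 and 33.6 at CT16, 11.0 and 10.4 at CT20, and 6.18 and 8.50 at CT24, in CPM. Its values at CT12 and CT16 all lay above those of the other times, the closest being replicate 2 at CT12 and replicate 1 at CT20, and the fitted phase was 14.9 ± 0.55 h. Dnaja1 (chr4:40722468-40734965), an HSP40 cochaperone, had the latest phase of the 81, 14.9 ± 0.54 h, with 71.1 ± 13.0 CPM at CT16 and 29.1 ± 1.12 at CT4. Of 23 measured heat shock chaperones, these 2 were in the dusk window, 4 in the night window and 17 in none. Herpud1 (chr8:94386429-94395371), a component of the degradation machinery of the endoplasmic reticulum, peaked at 12.5 ± 0.54 h with 563 ± 19.7 CPM at CT12 and 202 ± 83.3 at CT0, and was the 1 dusk gene of 22 measured genes of that compartment.

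Upp2 (chr2:58566317-58795846), the liver uridine phosphorylase, was among the most abundant genes of the set with a mean of 386 CPM. Its libraries read 134 and 147 at CT0, 144 and 139 at CT4, 588 and 475 at CT8, 1125 and 707 at CT12, 492 and 502 at CT16, 278 and 278 at CT20, and 195 and 194 at CT24, in CPM. Every value at CT8, CT12 and CT16 lay above every other value. Coq10b (chr1:55052770-55072702), which binds coenzyme Q in mitochondria, gave closely matched mice at CT8, CT12 and CT16, at 6.89 and 8.34 at CT0, 8.97 and 10.7 at CT4, 23.1 and 23.0 at CT8, 42.4 and 42.2 at CT12, 23.0 and 22.9 at CT16, 16.1 and 8.97 at CT20, and 9.42 and 8.46 at CT24, in CPM. Both genes were kept under all 26 alternatives, with phases of 12.8 ± 0.44 h and 12.3 ± 0.36 h. Rrm2, a subunit of ribonucleotide reductase, and Mcm10, a replication factor, stood at 12.1 ± 0.948 CPM at CT16 and 81.6 ± 10.5 CPM at CT12, while Wee1 was the 1 dusk gene among 15 measured genes of the cell cycle list. Bnip3, a receptor of mitochondrial autophagy, had a narrow range, with 81.7 ± 15.9 CPM at CT16 and 37.5 ± 9.39 at CT4.

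A group of 6 transporters and channels, for amino acids, vitamins, bilirubin conjugates and potassium, had phases from 10.2 to 13.0 h. It leaves out the glucose and lipid carriers named above. Slc7a2 (chr8:40862341-40922070), the cationic amino acid transporter of the liver, read 275 and 444 at CT0, 455 and 431 at CT4, 805 and 746 at CT8, 1147 and 919 at CT12, 441 and 454 at CT16, 306 and 336 at CT20, and 293 and 379 at CT24, in CPM. Its phase was 10.2 ± 0.52 h, and its CT8 and CT12 values did not overlap with any other time. Slc38a2, a sodium-coupled carrier of neutral amino acids, had 139 ± 7.48 CPM at CT12 and 49.0 ± 6.71 at CT24. Slc6a9, a glycine transporter, peaked later, at 13.0 ± 0.64 h. Slc5a6, the carrier of biotin and pantothenate, had the widest range of these 6, with 24.4 ± 5.11 CPM at CT12 and 4.01 ± 0.530 at CT4. Abcc2 (chr19:43782308-43838332), the export pump of conjugated bilirubin into bile, had 613 ± 17.5 CPM at CT12 and 300 ± 65.7 at CT0. Abcc2 and Por were the 2 dusk genes among 34 measured genes of drug handling outside the omitted families, of which 29 fell in no window.

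The set also held 6 receptors and adhesion molecules, grouped by hand once the genes were known. Il6ra, the interleukin-6 receptor, stood at 37.1 ± 5.25 CPM at CT12 and 12.8 ± 0.904 at CT4. Il1r1, the interleukin-1 receptor, stood at 38.5 ± 5.37 CPM at CT12 and 11.8 ± 2.91 at CT0. Tlr5, the receptor of flagellin, read 14.5 and 13.96 CPM at CT12, and P2ry2, a receptor of extracellular nucleotides, read 11.5 and 12.2 CPM at CT12 against 2.40 and 3.05 CPM at CT20. Tgfbr1, a receptor of transforming growth factor beta, reached 15.8 ± 0.870 CPM at CT12, and Vcam1, an adhesion molecule also made by endothelial cells, 21.3 ± 1.01 CPM at CT12. No gene of the 10 marker lists is among the 81, and the summed endothelial markers were at 642 CPM at CT0 and 563 CPM at CT12. The part of cell types in these values was not tested.

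Hamp (chr7:30942368-30944029), the iron hormone hepcidin, read 163 and 317 at CT0, 284 and 253 at CT4, 559 and 306 at CT8, 618 and 388 at CT12, 689 and 619 at CT16, 481 and 535 at CT20, and 326 and 292 at CT24, in CPM. Its 2 mice lay far apart at CT0, CT8 and CT12, and its replicate series gave 13.4 and 16.6 h. Per length of coding sequence, Hamp had 1612 CPM of CDS reads per kilobase, the highest level of the 81 on that scale, ahead of Pck1 with 863. Hamp was the 1 dusk gene of 29 measured plasma proteins and secreted factors, of which 28 were in no window. Saa4, a constitutive serum amyloid, reached 292 ± 114 CPM at CT16, again with mice far apart.

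The reads of some genes lay outside the CDS. Nrg4, which encodes neuregulin 4, reached 15.1 ± 3.32 CPM at CT12, but 87.5% of its reads lay in the annotated 3′UTR, and it no longer passed with CDS reads alone. Pcsk4, a proprotein convertase known from the testis, was low, at 0.678 and 1.01 CPM at CT4 and 7.20 and 17.4 CPM at CT12, without 5′UTR reads and with 9.04% of its reads past the stop codon. The 5′UTR held 45.5% of the reads upstream of the stop codon of 1810055G02Rik, 38.8% of those of Fam102a, 32.1% of those of Rdh9, a retinol dehydrogenase gene with near copies, and 29.7% of those of P2ry2. With CDS reads alone 70 of the 81 were kept, and the 11 others were Flot1, Gba2, Mt1, Nabp1, Ngef, Nrg4, Pnpla2, Rdh9, Tlr5, Tom1l2 and Zfp385b. For 26 of the 81 genes another transcript also had a mean of at least 100 reads, and 50 of those 52 transcripts had phases in the same window, with reads that may be shared.

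The set held 7 transcription regulators, with phases from 11.8 to 13.2 h. Klf13 reached 33.9 ± 3.12 CPM at CT12 and was the 1 dusk gene among 24 measured nuclear receptors and liver transcription factors, and Bach1, a repressor of heme-regulated genes, 35.4 ± 2.08 CPM at CT12. Trim24, a cofactor of nuclear receptors, was one of 13 genes kept with Mup in the totals, with 16.1 ± 1.63 CPM at CT12 and 5.16 ± 0.754 at CT0. A group of 4 kinases and nutrient sensors leaves out Wee1 and Pfkfb3, which are described above. Ulk1, which starts autophagy, and Fnip1, a partner of folliculin, had early phases of 9.56 ± 0.88 h and 10.3 ± 0.45 h, while the kinases Pim3 and Mknk2 had 13.2 ± 0.74 h and 13.6 ± 0.68 h.

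The largest group by role held 13 genes of the cytoskeleton, membrane traffic and small GTPases, with a median difference of 1.12 log2 units, below the median of the set. Tns2, a tensin, was highest at CT8, with 55.7 ± 9.37 CPM at CT8. Klhdc7a, to which no role was assigned, was also highest at CT8, with 20.8 ± 3.59 CPM at CT8. Syt1, a synaptotagmin known from neurons, read 13.97 and 8.99 CPM at CT8 and 13.3 and 10.4 CPM at CT12. At the limits of the rule, Dclre1c and Ngef were just inside in R2 (0.602 and 0.603), with Fnip2 and Smad9 just outside (0.595 and 0.575). Mtss1 and Flot1 were just inside in amplitude (both 1.00), with Nr3c2 and Tbc1d15 just outside (both 0.98). Klhdc7a and Syt1 had the earliest phases (9.11 and 9.39 h), with Limd2 and Wdr6 just before (8.97 and 8.79 h), and Dnaja1 and Fkbp5 the latest (14.9 h for both), with Nmrk1 and Akr1c19 just after (15.0 and 15.2 h). A further 166 genes had phases in the window and an R2 of at least 0.6 but an amplitude under 1.

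Compared with the other windows of the same rule, the dusk set differed in timing by construction, and its median amplitude of 1.30 was close to those of the day (1.28, 53 genes), night (1.41, 57 genes) and dawn sets (1.40, 136 genes). Its median 5′UTR was 220 nt long and its median 3′UTR 1499 nt, against 141 and 884 nt over all 8166 genes, and against 119 to 189.5 nt and 689 to 934.5 nt in the other windows. The median CDS was 1530 nt, against 1373 nt over all genes. Of the reads upstream of the stop codon, a median of 6.07% lay in the 5′UTR, against 3.47% over all genes and 3.33% to 6.57% in the other windows. An upstream open reading frame (uORF, an ATG with an in-frame stop inside the 5′UTR) was present in 29 of the 67 dusk genes whose annotated 5′UTR length matched the files (43.3%), in 36.7% of 6770 genes, and in 22 of 44 day genes, 32.6% of the night and 41.2% of the dawn genes. Per kilobase of 5′UTR, the dusk genes had 3.08 uORFs and all genes 4.55, with 6.91 in the day, 3.61 in the night and 4.43 in the dawn set. No test was made of these shares and medians.

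**Figure D4:**
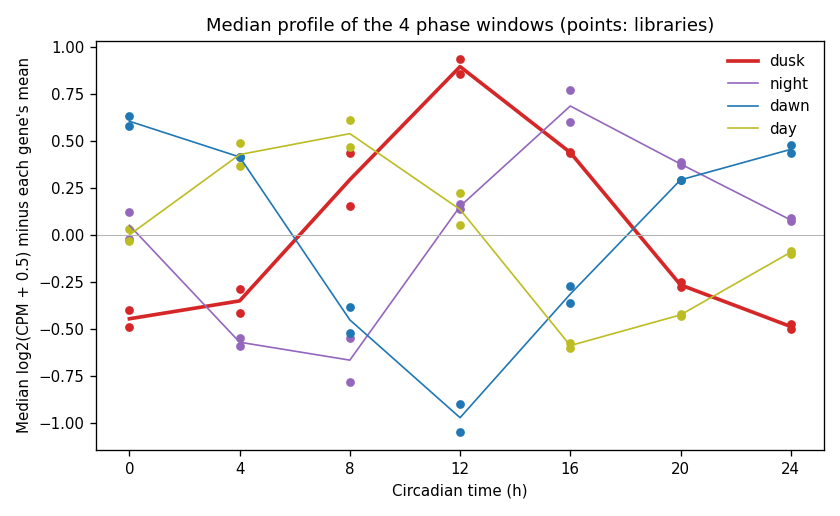
Median over genes of log2(CPM + 0.5) minus each gene's mean, per library (points) and per time (lines), for the dusk (81 genes), night (57), dawn (136) and day (53) sets against circadian time in h. The dusk set is highest at CT12, where the dawn set is lowest.

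Whether the share of ribosomes in the 5′UTR changed over the day was tested apart from the total level, with the ratio of 5′UTR to CDS counts in 1 edgeR quasi-likelihood model over both regions. It was called in 0 of 5111 genes (0.0%) at a Benjamini-Hochberg adjusted p of 0.05, and in 0 of the 56 dusk genes with enough reads. Without adjustment, 183 of the 5111 (3.58%) and 3 of the 56 (5.36%) had p below 0.05, and limma on the log2 ratio called 0 genes with 244 unadjusted, 4 of them dusk genes. The dusk genes of the edgeR test were Pnpla2, whose ratio had a fitted range of 2.55 log2 units, Pim3 with 1.17 and Slc5a6 with 1.64, and the edgeR adjusted p was 0.952 for each. The median fitted change of the ratio was 0.75 log2 units in the dusk genes and 0.76 in all genes tested.

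The phases of the 2 regions were also fitted apart. In the 44 dusk genes with a mean of at least 30 reads in each region, the 5′UTR reads peaked before the CDS reads in 36, with a median difference (5′UTR minus CDS) of -0.93 h and quartiles of -1.80 and -0.22 h. In the other windows the 5′UTR reads peaked earlier in 8 of 21 day genes, 10 of 26 night genes and 16 of 70 dawn genes, with median differences of 0.35, 0.30 and 0.64 h. The 5′UTR share of all counts outside Mup itself varied between libraries, from 2.98% to 4.88%. When each region was scaled by its own total, an alternative chosen after seeing the data, the 5′UTR reads were earlier in 29 of 44 dusk genes, the median difference was -0.17 h with quartiles of -1.08 and 0.35 h, and the same held for 6 of 21 day genes (median 0.58 h), 12 of 26 night genes (0.14 h) and 33 of 70 dawn genes (0.09 h). The median standard errors of the dusk phases were 1.26 h for the 5′UTR and 0.69 h for the CDS, and no test of the phase differences was made.

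**Figure D5:**
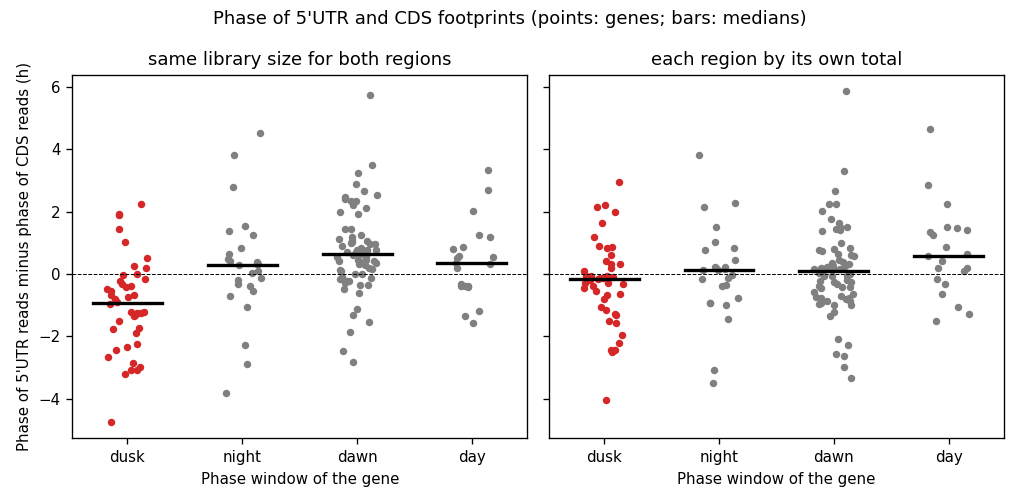
Phase of 5′UTR reads minus phase of CDS reads (h) for genes of the 4 windows with a mean of at least 30 reads in each region, with both regions scaled alike (left) and each by its own total (right). Points are genes and bars are medians, and the dusk median moves from -0.93 to -0.17 h.

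CT24 was set against CT0, collected 1 calendar day earlier, since a 24-h cosine gives CT0 and CT24 the same value, although the R2 limit of the rule caps their difference. In edgeR's quasi-likelihood test with TMM scaling, CT24 differed from CT0 in 0 of 8166 genes (0.0%) and 0 of the 81 at an adjusted p of 0.05. Unadjusted, 483 genes (5.91%) and 5 dusk genes (6.17%) had p below 0.05, and DESeq2 called 4 genes, none of them a dusk gene. The dusk genes differed by a median of -0.0045 log2 units, from -1.45 to 0.78, and all genes tested by a median of 0.0025. The 5 were Arhgef26 (9.86 CPM at CT0, 16.21 CPM at CT24, log2 difference 0.78 ± 0.22 SE), Upp2 (141 and 194 CPM, 0.53 ± 0.20), Nrg4, Clmn and Tbc1d24, all higher at CT24 and each with an adjusted p of 0.827. Without a count filter the same test called 47 genes, and among them Mt2, which was lower at CT24.

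The shape of the daily profile beyond the 24-h cosine was tested as a 12-h component beside it. It was called in 19 of 8166 genes (0.233%) and in 2 of the 81, Pfkfb3 and Noct, with edgeR adjusted p-values of 0.00295 and 0.0144. The fitted 12-h peak-to-trough was 1.62 log2 units for Pfkfb3 and 1.65 for Noct, and the 12-h peaks lay at 11.3 and 10.9 h, and again 12 h later. In the values per library above, both genes had a CT12 pair above all other libraries and a CT4 pair below all others. The 12-h term takes in both departures from the cosine and does not separate them. Both stayed past the threshold in all 20 alternatives, with adjusted p-values of at most 0.0219 and 0.0496. Unadjusted p-values below 0.05 were found in 25 of the 81 (30.9%) and in 8.35% of all genes tested, and the median fitted 12-h change was 0.41 log2 units in the dusk genes against 0.24 in all. The 12-h and 24-h terms were fitted to the same libraries that chose the genes, and the limit on R2 caps the former. The rule also picks genes with a large change relative to their scatter. The shares and medians of the 81 and of all genes are therefore not like for like, and no trait of the set is read from them.

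DESeq2 called 143 genes with a 12-h component, 6 of them dusk genes, adding Fkbp5, Slc5a6, Upp2 and Usp2 to the 2. Slc5a6 had an adjusted p of 0.0505 in edgeR, and Usp2, with the widest fitted 12-h change of the 81 (2.36 log2 units), 0.120. The number of genes called was 10 without CT8 replicate 1, 10 without CT12 replicate 1, 12 without CT20 replicate 1, 32 without CT16 replicate 2, 32 without CT24 replicate 1 and 38 without CT12 replicate 2. Noct and Pfkfb3 were called in each of these, Upp2 in addition without CT12 replicate 2, and Slc5a6 without CT16 replicate 1.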

How the data were processed

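Ribosome-protected fragments of 26 to 34 nt from whole liver were sequenced by the authors in 14 libraries, 2 mice at each of 7 times. The deposited values are raw counts of reads in the CDS and in both UTRs of each of 28167 RefSeq transcripts, and per the labels the reads were mapped with Bowtie2 2.1.0.0 to mm10 and handled with FastQC and SAMtools 0.1.19.0. Exact matches were kept and, per the paper, density profiles were built from uniquely placed reads. In some libraries the total count nonetheless exceeded the mapped reads that the paper reports per sample. A read may thus count for several transcripts, so totals and Mup percentages are shares of counts and not of reads. How reads that fit near copies of a gene were counted is not known here. The CT24 libraries carry CT24 in their titles but the CT00 value in the time field, and were used as CT24. The second sequencing run of CT16 replicate 2 was not used here, and all counts of that library were even.

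The counts of the 3 regions were summed. Of the transcripts, 27956 were named through RefSeq or GENCODE tables, and the 211 others were left out. CPM used totals without 21 Mup transcripts. The 81 genes, the gene and marker lists and the comparisons were chosen with earlier results of these data known, and the role groups were assigned by hand after the genes were known. Named genes were the 15 with the largest peak-to-trough difference, the 10 with the highest mean CPM, up to 4 per list, up to 5 called per test, the 2 on each side of each limit of the rule, up to 12 with an E-box or D-box, and those on which a list count of 5 or fewer turns. Other genes named as examples of a role were chosen after their values were seen.

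edgeR 4.0.16 (R 4.3.3) quasi-likelihood tests with Benjamini-Hochberg adjustment over all genes tested were run for 5′UTR counts relative to CDS counts (with 10 or more counts per region on average), for CT24 against CT0 and for a 12-h component (a mean of at least 100 counts), with limma 3.58.1 and DESeq2 1.42.0 as alternatives. Each test was checked on simulated counts with 200 changed genes. For the 12-h component, edgeR called 196 of them and 9 unchanged genes, and DESeq2 called 198 and 28. For CT24 against CT0, edgeR called 199 and 12 unchanged genes, and DESeq2 called 199 and 32. For the ratio, edgeR called 182 and 9 unchanged genes, and limma called 174 and 5. Cosines were fitted with Python 3.11.15, numpy 2.4.6 and pandas 2.3.3, sequences were read with pysam 0.24.0 from GRCm38.p6, and figures were drawn with matplotlib 3.10.9. Alternatives covered the scaling, pseudocount, count minimum, CDS reads alone, the R2 limit, a replicate block and leaving out libraries. Counts per library limit the precision of low genes, and PCR copies were not marked, so reads are not independent molecules. The values of 2 of the 81 genes are not reported here, and those genes are left out of the heat map and the phase plot.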

Additional observations from a re-analysis of the deposited data

How the results depend on the processing

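The rule kept 13 genes with Mup in the totals and 53 with an R2 of at least 0.7, against 81. Under the other scalings, pseudocounts, count minimums and reads used it kept 55 to 95 genes, without both CT24 libraries 91, and 60 to 92 with 1 library left out, of which 58 to 78 were among the 81. The lowest counts were 60 without CT12 replicate 2 and 68 without CT12 replicate 1. Only Coq10b, Gys2, Lpin2, Pck1, Upp2 and Usp2 were kept under all 26 alternatives, and 25 genes were lost under 5 or more. The mice share only a replicate number, since the labels give both series the same days and do not say what the series letters A and B mark, and not every pair of times had a correlation of deviations above 0.1 (9 of 21 did, from -0.126 to 0.409), and with the replicate block 83 genes were kept, including all 81. CT24 against CT0 called 0 genes in edgeR, 1 with totals without Mup, 4 in DESeq2, 47 without a count filter, 7 with the replicate block, and 0 to 2 with 1 library left out (2 without CT0 replicate 1, 1 without CT20 replicate 2). The 12-h component was called in 19 genes, in 41 with totals without Mup, in 143 in DESeq2, in 312 without a count filter, in 38 with CDS counts only, in 37 with the replicate block, and in 10 to 38 with 1 library left out. The ratio of 5′UTR to CDS counts was called in 0 genes under all of its 19 alternatives in edgeR and limma, with 129 to 305 unadjusted p-values below 0.05. Causes of these shifts were not tested. With 2 mice per time the spread at a time rests on 1 degree of freedom per gene, and genes with few reads have wide errors.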
